A study of Mus musculus with 41 samples.

Results

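The 10 genes described here take up, carry, store and burn fatty acids, and they were followed in mouse microglia, the resident macrophages of the brain. They were chosen by name as the rows Lpl, Plin2, Fabp3, Fabp4, Fabp5, Dgat1, Dgat2, Pnpla2, Cpt1a and Acsl1 of the deposited read count table, and all 10 were found among its 24537 gene symbols. Microglia of C57Bl6 mice were sorted by flow cytometry as CD11b+ CD45Low cells and profiled at once (ex vivo, 5 RNA libraries) or kept in DMEM/F12 medium with 5% serum and daily IL-34, which signals through the CSF1 receptor, with no medium change. Cultures were sampled at 6 h (2 libraries), 24 h (3 libraries, of which replicate 2 is labelled 22 h) and 7 d (5 libraries). Another set of 7 d cultures was given TGFβ beside IL-34 (2 libraries), and brain lysate gave 4 libraries. Poly(A) RNA was sequenced to 11.6 to 28.8 M counts per library. Nothing in the labels ties libraries to separate animals, so the p-values reflect only the spread between libraries, which may be technical. Within the 7 d group, replicates 2 and 3 stood apart, with a correlation of 0.993 between them and of 0.958 to 0.979 with the other 3. Without both, of the calls for the 10 genes only the fall of Pnpla2 for 7 d over 24 h was lost (-0.48, adjusted p = 0.151 with edgeR).

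Lipoprotein lipase, encoded by Lpl, cuts fatty acids from the triglycerides of lipoproteins outside the cell. Inside, ACSL1 joins fatty acids to coenzyme A, the fatty acid-binding proteins FABP3, FABP4 and FABP5 carry them through the cytosol, DGAT1 and DGAT2 make the last step of triglyceride synthesis, and PLIN2 coats the lipid droplets in which triglycerides are stored. The lipase ATGL, encoded by Pnpla2, starts the breakdown of droplet triglycerides, and CPT1A lets long-chain fatty acids into mitochondria for β-oxidation. In macrophages and microglia, Lpl and Plin2 are familiar genes of lipid-loaded cells.

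Promoters of 5 of the 10 genes are in the RefSeq promoter table used here (GRCm38.p6), each with 250 bases before and 50 after the start. The 3 that bear on the chromatin values given further on are shown. In Plin2 (chr4:86670010-86670309, minus strand) and Cpt1a (chr19:3323051-3323350, plus strand), capitals mark matches to the searched motifs: TGACCT, which is the nuclear receptor hexamer AGGTCA read on the other strand, and the E-box CACGTG. In Fabp3 (chr4:130308488-130308787, plus strand), which held no match, capitals mark the 183 bases that lie inside an ATAC peak of both conditions.
Plin2: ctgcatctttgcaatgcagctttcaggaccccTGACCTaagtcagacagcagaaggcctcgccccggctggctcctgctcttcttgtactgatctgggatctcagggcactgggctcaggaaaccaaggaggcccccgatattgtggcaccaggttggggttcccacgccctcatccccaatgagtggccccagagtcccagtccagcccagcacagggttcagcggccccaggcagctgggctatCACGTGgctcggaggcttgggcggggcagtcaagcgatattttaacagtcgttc
Cpt1a: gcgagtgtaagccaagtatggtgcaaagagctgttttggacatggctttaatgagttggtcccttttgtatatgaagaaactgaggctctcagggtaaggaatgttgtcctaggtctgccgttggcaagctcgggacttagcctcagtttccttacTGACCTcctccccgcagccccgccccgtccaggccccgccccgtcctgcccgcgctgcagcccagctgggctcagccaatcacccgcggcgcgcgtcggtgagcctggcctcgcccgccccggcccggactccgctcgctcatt
Fabp3: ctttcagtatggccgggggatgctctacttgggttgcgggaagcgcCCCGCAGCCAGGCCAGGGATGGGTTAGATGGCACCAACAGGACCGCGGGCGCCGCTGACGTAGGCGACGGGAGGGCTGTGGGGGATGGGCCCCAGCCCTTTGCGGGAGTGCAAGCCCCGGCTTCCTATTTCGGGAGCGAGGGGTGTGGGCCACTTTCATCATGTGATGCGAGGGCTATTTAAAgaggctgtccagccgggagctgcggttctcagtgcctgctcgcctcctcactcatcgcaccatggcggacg
The E-box of Plin2 began 4 bases before its start, and the hexamer began 218 bases before the start of Plin2 and 94 bases before that of Cpt1a. These are starts of the promoter table, and that of Cpt1a lies inside its gene body. Of all 32851 promoters in the table, 16.3% held AGGTCA and 7.15% held CACGTG on either strand. The other 4 motifs searched on both strands were GAGGAAGT for PU.1, the DR1 repeat of PPAR with RXR, which is the hexamer repeated after a single base, TGANTCA for AP-1 and TATAAA, which 3.2%, 0.0396%, 7.81% and 13.6% of promoters held. None of these 4 was found in the 300 bases at the starts of Plin2, Fabp3, Pnpla2, Acsl1 or Cpt1a. The repeat contains AGGTCA, so its matches also count for the hexamer. A match describes letters and not a bound site.

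Lpl changed most and at once. Its level, in CPM, read counts scaled to the TMM-adjusted library size, was 38.0, 40.1, 46.6, 18.5 and 12.6 ex vivo, 9142 and 9447 at 6 h, 14710, 10340 and 11930 at 24 h, and 9331, 9933, 10570, 10720 and 10540 at 7 d. Every cultured library lay far above every ex vivo library, and within culture the 24 h and 7 d libraries overlapped. In edgeR's quasi-likelihood test, with Benjamini-Hochberg adjustment over 13840 genes, the log2 fold change over ex vivo was 8.22 ± 0.38 (SE) at 6 h (adjusted p = 1.36e-11), 8.63 ± 0.37 at 24 h (adjusted p = 7.89e-12) and 8.35 ± 0.36 at 7 d (adjusted p = 7.00e-12). The steps within culture did not pass the test, with a log2 difference of 0.41 for 24 h over 6 h (adjusted p = 0.417, or 0.45 with adjusted p = 0.0484 in a fit of these 2 groups alone) and -0.27 for 7 d over 24 h (adjusted p = 0.475). Lpl thus averaged 9294 ± 216 CPM at 6 h (SD, n = 2) and 31.2 ± 14.7 CPM ex vivo (SD, n = 5), 298 times as much in the fit.

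Plin2, the droplet coat gene, was also high at 6 h but kept climbing. It had 22.9, 14.4, 21.6, 15.3 and 20.9 CPM ex vivo, 809 and 632 CPM at 6 h, 1223, 1221 and 1079 CPM at 24 h, and 3017, 2664, 2589, 3122 and 2969 CPM at 7 d. No library of one time overlapped the next. Over ex vivo, its log2 fold change was 5.24 ± 0.18 at 6 h (adjusted p = 6.72e-13), 5.95 ± 0.18 at 24 h (adjusted p = 1.93e-13) and 7.24 ± 0.19 at 7 d (adjusted p = 1.27e-13). The steps within culture passed the test too, by 0.71 ± 0.21 for 24 h over 6 h (adjusted p = 0.0123) and by 1.29 ± 0.17 for 7 d over 24 h (adjusted p = 1.43e-05). The first of these rests on both 6 h libraries, since without 6 h replicate 2 it was 0.53 (adjusted p = 0.175).

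**Figure D1:**
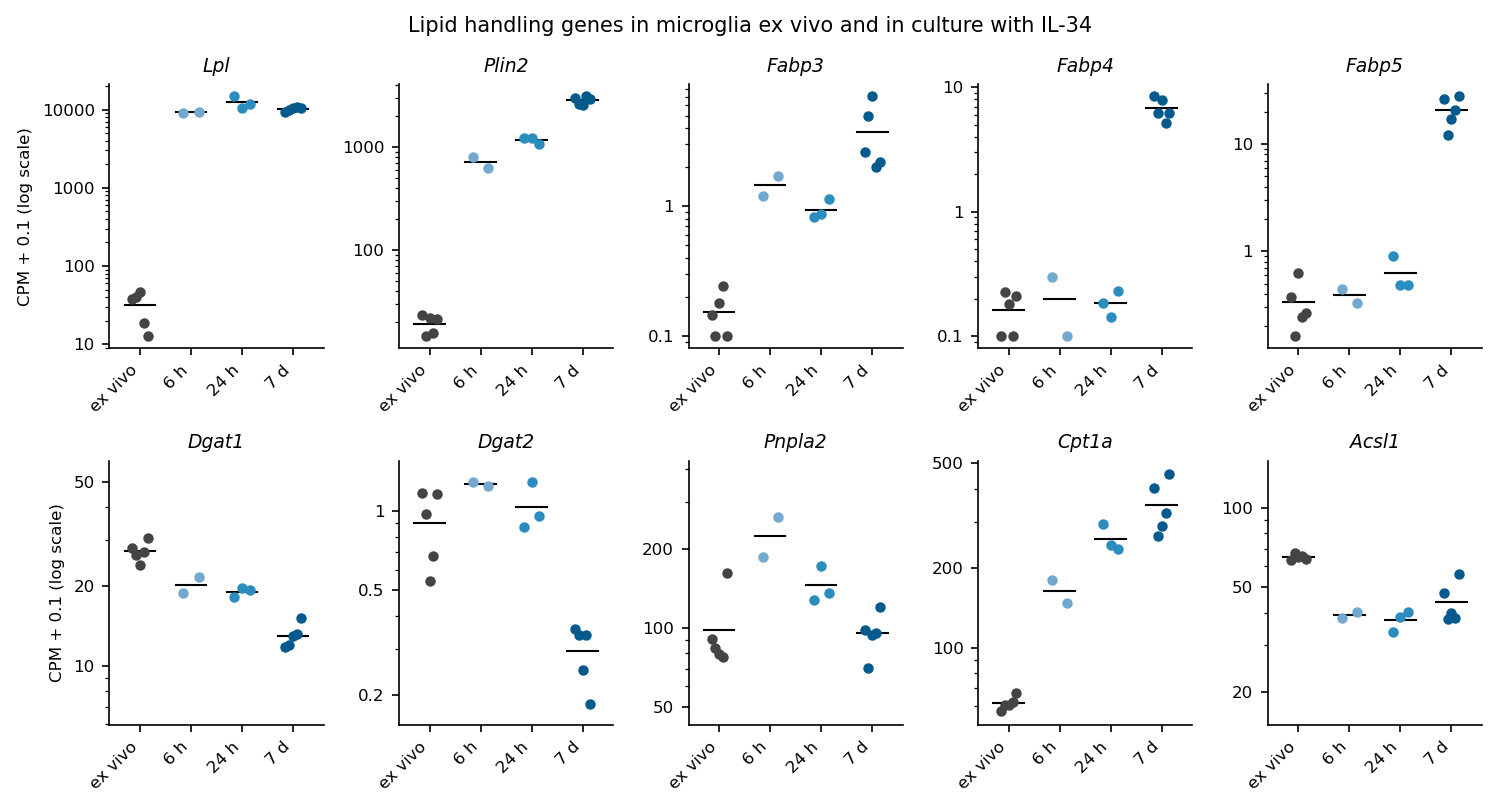
CPM plus 0.1 of the 10 genes (log scale) in each library of ex vivo microglia and of cultures at 6 h, 24 h and 7 d, with a line at each mean. Lpl reaches 9142 CPM or more in every culture library, Plin2 climbs at each time, Fabp4 and Fabp5 are high at 7 d, and Dgat1 and Dgat2 are lowest at 7 d.

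The 3 fatty acid-binding protein genes were nearly absent ex vivo and differed in when they appeared. Fabp3, the heart-type protein, had 1, 0, 2, 2 and 0 counts ex vivo, 22 and 28 at 6 h, 17, 18 and 24 at 24 h, and 69, 141, 186, 48 and 49 at 7 d. It was over the filter's limit of 0.457 CPM in every culture library and in 0 of the ex vivo libraries, so that it entered the fit only through culture and had to differ. It was called higher at every time, with a log2 fold change over ex vivo of 4.53 ± 0.69 at 6 h (adjusted p = 1.78e-05), 3.86 ± 0.66 at 24 h (adjusted p = 7.51e-05) and 5.97 ± 0.59 at 7 d (adjusted p = 1.43e-07). At 7 d, replicates 2 and 3 stood above the others, with 4.83 and 6.91 CPM against 2.54, 1.9 and 2.09 CPM. Without these 2 libraries the rise over ex vivo was 5.21 on the log2 scale and that of 7 d over 24 h was 1.35 (adjusted p = 0.0279) in place of 2.11.

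Fabp4, the adipocyte and macrophage protein, had 0, 2, 2, 0 and 2 counts ex vivo, 4 and 0 at 6 h, 2, 1 and 3 at 24 h, and 227, 179, 210, 129 and 144 at 7 d. Fabp5, the epidermal-type protein, had 6, 1, 13, 2 and 3 counts ex vivo, 7 and 4 at 6 h, 19, 9 and 9 at 24 h, and 714, 352, 455, 518 and 645 at 7 d. Both were thus at a few counts until 24 h and high in all 5 libraries at 7 d. At 7 d the log2 fold change over ex vivo was 6.60 ± 0.56 for Fabp4 (adjusted p = 2.10e-08) and 6.30 ± 0.48 for Fabp5 (adjusted p = 7.40e-09), and 7 d over 24 h gave 6.20 ± 0.66 (adjusted p = 1.31e-06) and 5.28 ± 0.55 (adjusted p = 1.16e-06). Neither passed the test at 6 h or 24 h, where Fabp5 had a log2 fold change of 1.03 at 24 h (adjusted p = 0.15, or 1.61 with adjusted p = 0.0482 without ex vivo replicate 3). Fabp4 entered the fit only because of its 7 d libraries and 1 library with TGFβ, and Fabp5 was over the limit in 1 ex vivo library, 1 at 24 h and all at 7 d, with or without TGFβ, so that both had to differ somewhere. Fabp3 and Fabp5 have pseudogenes, and no source used here says how such reads were counted, so their levels are uncertain.

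Per length, in the deposited TPM, the make-up of the 3 FABP transcripts changed. At 7 d, Fabp5 made up 61.8%, 42.4%, 43.6%, 66.3% and 69.2% of their sum and Fabp4 23.0% to 32.2%. At 6 h and 24 h, Fabp3 made up 53.5% to 91.2%. The sums were small until 24 h, at 0.524 to 1.58 TPM ex vivo, 3.53 and 4.15 TPM at 6 h and 3.12 to 4.22 TPM at 24 h, against 50.3 to 74.5 TPM at 7 d.

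Dgat1 was lower in culture at every time, and Dgat2 at 7 d. Dgat1 had 27.9, 26.3, 24.0, 27 and 30.4 CPM ex vivo, 18.8 and 21.7 CPM at 6 h, 18.1, 19.6 and 19.3 CPM at 24 h, and 11.7, 11.9, 12.9, 13.1 and 15.2 CPM at 7 d. All cultured libraries lay below all ex vivo libraries. Its log2 fold change over ex vivo was -0.42 ± 0.14 at 6 h (adjusted p = 0.0141), -0.51 ± 0.12 at 24 h (adjusted p = 0.00161) and -1.07 ± 0.11 at 7 d (adjusted p = 1.47e-07). The call at 6 h was lost without 6 h replicate 1 (-0.29, adjusted p = 0.212) and in a fit of the 2 groups alone (-0.39, adjusted p = 0.0637). Dgat2 was rare in microglia, with 23, 14, 11, 8 and 19 counts ex vivo, 24 and 20 at 6 h, 18, 28 and 20 at 24 h, and 7, 7, 4, 6 and 2 at 7 d. It fell at 7 d, by 2.01 ± 0.47 on the log2 scale against ex vivo (adjusted p = 0.00117) and by 2.24 ± 0.51 against 24 h (adjusted p = 0.00181). At 6 h and 24 h its log2 fold changes of 0.54 and 0.23 did not pass the test. Dgat2 was over the filter's limit of 0.457 CPM in 0 of the 7 d libraries and passed through the groups where it was higher.

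Of the genes that release and burn fatty acids, Pnpla2 had its highest level early. It had 90.5, 83.9, 79.4, 77.7 and 161 CPM ex vivo, 185 and 263 CPM at 6 h, 128, 172 and 135 CPM at 24 h, and 97.8, 70.2, 93.6, 95.8 and 120 CPM at 7 d. Both 6 h libraries lay above all ex vivo libraries, and the ex vivo and 7 d libraries overlapped. The log2 fold change over ex vivo was 1.18 ± 0.25 at 6 h (adjusted p = 5.64e-04) and -0.04 ± 0.20 at 7 d (adjusted p = 0.854). At 24 h it was 0.56 ± 0.23 (adjusted p = 0.0433), a call lost in 10 of 16 alternatives, among them leaving out 24 h replicate 2 (0.42) or 24 h replicate 3 (0.63) or any of ex vivo replicates 1 to 4 (0.49 to 0.54). The fall for 7 d over 24 h, -0.60 ± 0.23 (adjusted p = 0.0386), was likewise lost in 7 of 17 alternatives, namely without 24 h replicate 2 (-0.46) or 3 (-0.69), without any of 7 d replicates 1 to 4 (-0.61 to -0.51) and without 7 d replicates 2 and 3 together.

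Cpt1a, the gate of mitochondrial β-oxidation, had 57.3, 60.3, 60.2, 62.3 and 67.1 CPM ex vivo, 180 and 147 CPM at 6 h, 293, 244 and 236 CPM at 24 h, and 404, 264, 289, 324 and 453 CPM at 7 d. Every cultured library lay above every ex vivo library. Over ex vivo the log2 fold change was 1.41 ± 0.18 at 6 h (adjusted p = 3.17e-06), 2.07 ± 0.17 at 24 h (adjusted p = 1.21e-08) and 2.50 ± 0.15 at 7 d (adjusted p = 4.18e-10). The step of 24 h over 6 h was 0.66 (adjusted p = 0.0210) and was lost without either 6 h library or without 24 h replicate 1 (0.51 to 0.79). That of 7 d over 24 h was 0.43 (adjusted p = 0.0470), a call that held in 3 of 17 alternatives and was lost without any 24 h library (0.33 to 0.50) or without 7 d replicate 1, 4 or 5 (0.31 to 0.45). Acsl1, which activates fatty acids, was steady ex vivo at 63.0 to 67.0 CPM and lower in all cultured libraries, at 38.2 and 39.9 CPM at 6 h, 33.6 to 40.1 CPM at 24 h and 37.6 to 56.0 CPM at 7 d. Its log2 fold change over ex vivo was -0.73 at 6 h (adjusted p = 3.90e-04), -0.80 at 24 h (adjusted p = 4.76e-05) and -0.57 at 7 d (adjusted p = 2.17e-04).

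Counted over the 10 genes, 5 were called higher at 6 h than ex vivo and 2 lower, in a comparison where 31.2% of all genes tested were called higher and 36.8% lower. At 24 h the counts over ex vivo were again 5 and 2 (29.6% and 33.1% of all genes), and at 7 d 6 and 3 (34.8% and 35.7%). In either direction that is 7, 7 and 9 of the 10, against 68%, 62.8% and 70.5% of all genes, shares near the background in the first 2 comparisons. The median log2 fold change of the 10 was 0.93 at 6 h, 0.79 at 24 h and 4.23 at 7 d, while that of all genes tested was -0.17, -0.06 and -0.02. These counts and medians include genes that passed the filter only or mainly through the groups where they were higher. Fabp3, Fabp4 and Fabp5 were over its limit in 0, 0 and 1 ex vivo libraries, and Dgat2 in 0 of those at 7 d. Within culture, 2 were called higher and 0 lower at 24 h than at 6 h (22% and 19.8% of all genes, 41.8% in either direction). The edgeR test gave 3 at an unadjusted p under 0.05, the third being Pnpla2 with a log2 difference of -0.63 (adjusted p = 0.0911), and DESeq2 called Pnpla2 lower. At 7 d against 24 h, 5 were called higher and 3 lower (27.2% and 21.6%, or 48.8% in either direction). These time points share the ex vivo libraries. In bulk RNA, fewer cells of a type and less RNA per cell cannot be told apart.

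**Figure D2:**
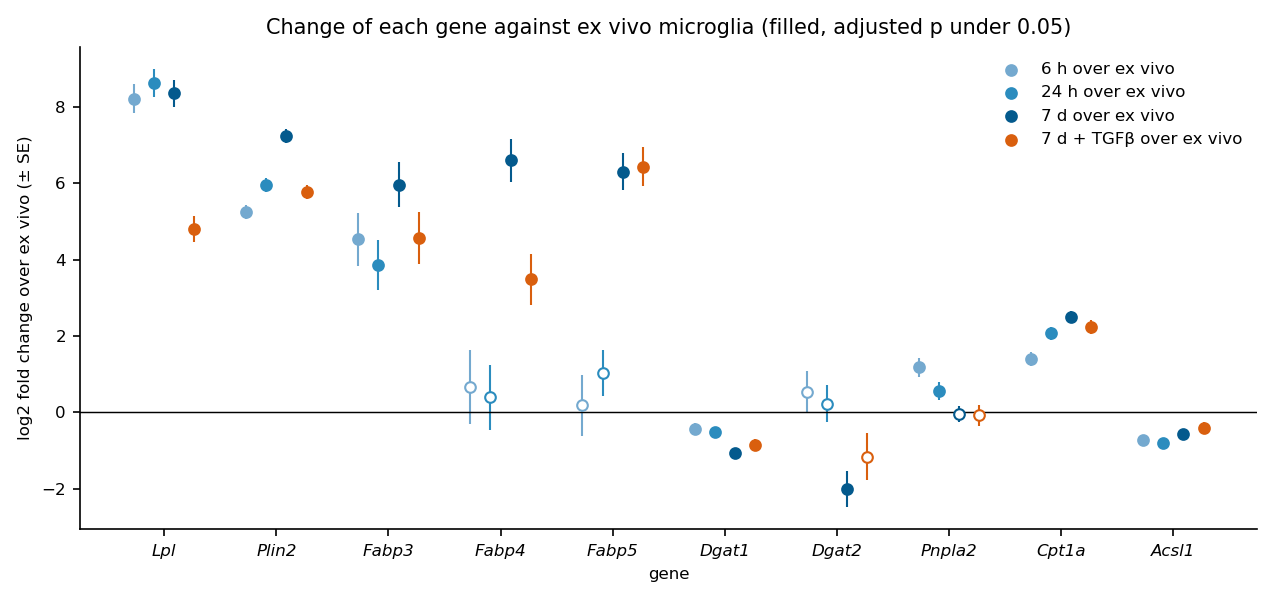
Log2 fold change over ex vivo microglia, with its standard error, for each of the 10 genes at 6 h, 24 h and 7 d and at 7 d with TGFβ; filled points passed an adjusted p of 0.05. Lpl is near 8 at all 3 times without TGFβ and at 4.80 with it, and Fabp4 and Fabp5 lie above 6 at 7 d.

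Other genes of lipid handling were read from 8 lists of 124 genes in all. Of all genes tested, 34.8% were called higher and 35.7% lower at 7 d than ex vivo. These shares were 31.2% and 36.8% at 6 h, 29.6% and 33.1% at 24 h, and 27.2% and 21.6% for 7 d over 24 h. At 7 d against ex vivo, 15 of 22 tested β-oxidation genes rose and 2 fell, with a median log2 fold change of 0.64 against -0.02 for all genes. Acaa2, a thiolase, averaged 41.9 ± 3.83 CPM at 7 d and 9.44 ± 1.80 CPM ex vivo (SD, n = 5 each), Slc25a20, the carnitine carrier, 34.6 ± 2.42 and 8.74 ± 1.27 CPM, and Acadl, which oxidizes long-chain acyl-CoA, 104 ± 18.8 and 22.4 ± 4.85 CPM. Cpt2, which acts after CPT1A, had 18.9 CPM at 7 d and 19.3 CPM ex vivo and was not called. Early in culture the list behaved otherwise: at 6 h, 6 of the 22 were higher and 12 lower than ex vivo, with Acadl up by 3.08 on the log2 scale and Hadh, a later step of the cycle, down at -3.43. At 24 h, 7 were higher and 8 lower, and for 7 d over 24 h, 16 were higher and 1 lower.

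Cd36, a fatty acid translocase and scavenger receptor, averaged 571 ± 183 CPM at 7 d and 1.45 ± 1.29 CPM ex vivo (SD, n = 5 each; log2 fold change 8.54, adjusted p = 2.84e-09), and it was already at 83.1 ± 16.5 CPM at 6 h (n = 2) and 208 ± 67.6 CPM at 24 h (n = 3). Of the 11 tested genes of uptake and activation, 3 rose and 2 fell at 6 h, with a median log2 fold change of 0.25, 8 rose and 2 fell at 24 h, and 7 rose and 2 fell at 7 d, with a median of 1.19. Of all genes tested, 31.2%, 29.6% and 34.8% were called higher at these times and 36.8%, 33.1% and 35.7% lower. Slc27a1, a fatty acid transport protein, averaged 87.2 CPM at 7 d and 33.7 CPM ex vivo, and Dbi, the acyl-CoA-binding protein, 64.0 and 5.47 CPM. Of 14 genes of fatty acid synthesis and desaturation, 10 rose and 2 fell. Among those that rose, Me1, the malic enzyme, had 12.1 CPM at 7 d and 0.261 CPM ex vivo, and Acaca, the acetyl-CoA carboxylase, 14.7 and 4.95 CPM. Thrsp, a lipogenic regulator, fell to 0.278 ± 0.297 CPM at 7 d, against 23.1 ± 5.68 CPM ex vivo. Me1 ex vivo and Thrsp at 7 d averaged under the filter's limit of 0.457 CPM. Both thus passed it mainly through groups where they were higher.

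Genes of droplet storage and breakdown moved in both directions at 7 d, where 34.8% of all genes tested were called higher and 35.7% lower. Of 9 tested genes of the droplet coat and surface, 4 rose and 1 fell, with a median of 0.20. Hilpda, which binds droplets and inhibits ATGL, averaged 12.9 ± 2.18 CPM at 7 d and 2.25 ± 0.84 CPM ex vivo, and it was highest early, at 31.1 ± 2.41 CPM at 6 h. Plin3, another coat gene, had 22.9 CPM at 7 d and 11.1 CPM ex vivo. Of 9 droplet lipolysis genes, 3 rose and 4 fell. Abhd5, the activator of ATGL, rose to 82.1 ± 8.18 CPM at 7 d, against 17.6 ± 3.82 CPM ex vivo, and Lipa, the lysosomal acid lipase, to 1239 ± 221 CPM, against 142 ± 17.6 CPM. Lipe, the hormone-sensitive lipase, fell to 31.0 ± 10.1 CPM at 7 d, against 87.4 ± 18.7 CPM ex vivo, and Mgll, the monoglyceride lipase, to 20.5 ± 6.75 CPM, against 117 ± 8.80 CPM. Among 12 triglyceride synthesis genes 4 rose and 2 fell, Gpam and Lpin1. Gpam, which makes the first step, had 17.8 CPM at 7 d and 41.6 CPM ex vivo.

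The partners of lipoprotein lipase and the regulators of lipid genes changed in both directions. Of 8 genes of lipoprotein lipolysis, 4 rose and 3 fell at 7 d, where 34.8% of all genes tested were called higher and 35.7% lower. Angptl4, an inhibitor of the lipase, averaged 23.0 ± 13.2 CPM at 7 d and 0.114 ± 0.082 CPM ex vivo (SD, n = 5 each), while Lmf1, which helps the lipase to fold, averaged 15.1 ± 4.00 and 39.9 ± 5.21 CPM. Of 13 regulators, 5 rose and 2 fell. Pparg, a lipid-sensing nuclear receptor, averaged 10.6 ± 3.78 CPM at 7 d and 0.069 ± 0.122 CPM ex vivo (log2 fold change 6.93, adjusted p = 2.25e-08). Ex vivo, Angptl4 and Pparg averaged under the filter's limit of 0.457 CPM. Both thus entered the fit through culture and had to differ somewhere. Ppard, a relative of Pparg, averaged 25.9 ± 5.25 and 121 ± 17.6 CPM, and Mlxipl, a glucose-responsive regulator of lipogenesis, 7.73 ± 8.54 and 600 ± 88.3 CPM.

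Markers of other cells were read beside these values, as summed CPM of total counts. The 7 adipocyte markers were nearly absent at 7 d, where 5 of the 7 (Lep, Plin1, Cidec, Adrb3 and Cfd) were at 0 in every library and the sum reached at most 0.0827 CPM, against at most 0.14 CPM ex vivo. The 6 border macrophage markers summed to 129 to 378 CPM at 7 d and 15.4 to 124 CPM ex vivo, but they did not move together. Siglec1 had a median of 168 CPM at 7 d and 7.72 CPM ex vivo, and Pf4 8.27 and 0.374 CPM. Mrc1 had medians of 57.3 and 41.45 CPM with overlapping libraries, while the medians of Cd163, Lyve1 and F13a1 were lower at 7 d than ex vivo. The part of these markers in the rises at 7 d was not tested. At 6 h and 24 h the 6 border macrophage markers summed to 2.38 to 18.2 CPM, and their part in the changes at these times was not tested. The 6 mural markers summed to 72.7 to 81.2 CPM at 6 h and 1.79 to 3.61 CPM ex vivo, of which Cspg4 alone made 72.4 to 80.2 CPM at 6 h while Rgs5, Kcnj8 and Vtn were at 0. The 8 endothelial markers summed to 87.6 to 114 CPM at 6 h, where Ly6c1 and Slco1a4 were at 0, and 38.1 to 46.9 CPM ex vivo. Esam made most of this difference, with 46.1 to 68.0 CPM at 6 h and at most 0.0663 CPM ex vivo. Pecam1 overlapped, at 37.3 to 39.4 and 34.5 to 42.3 CPM. The part of either list in the rises at 6 h was not tested. The 10 microglial markers summed to 7155 to 10950 CPM at 7 d and 43980 to 53910 CPM ex vivo, and the 10 neuronal ones to 0.571 to 1.19 and 2.85 to 29.5 CPM, the highest of which came from ex vivo replicate 3.

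TGFβ lowered 3 of the 10 genes in the 7 d culture and raised 0, in a comparison where 6.52% of all genes tested were called lower and 9.57% higher, 16.1% together. Of these 3, Fabp4 was over the filter's limit of 0.457 CPM in 5 libraries at 7 d, 1 with TGFβ and 0 ex vivo, at 6 h or at 24 h. It thus passed through the group where it was higher, which favoured its call. At an unadjusted p under 0.05 edgeR gave 0 of the 10 higher as well, and so did DESeq2 and limma at their adjusted thresholds. Lpl had 791 and 954 CPM with TGFβ, against 9331, 9933, 10570, 10720 and 10540 CPM without it. The difference was -3.55 ± 0.43 on the log2 scale (adjusted p = 1.76e-05), and both treated libraries stayed above all ex vivo libraries. Plin2 had 1163 and 917 CPM with TGFβ, against 2589 to 3122 CPM without it, a log2 difference of -1.47 ± 0.20 (adjusted p = 7.29e-05). Fabp4 had 10 and 30 counts with TGFβ, against 129 to 227 without it, a log2 difference of -3.12 ± 0.60 (adjusted p = 0.00159). None of these 3 sets of libraries overlapped, and each call held when either TGFβ library was left out, with Fabp4 at -2.64 (adjusted p = 0.0406) without replicate 1.

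**Figure D3:**
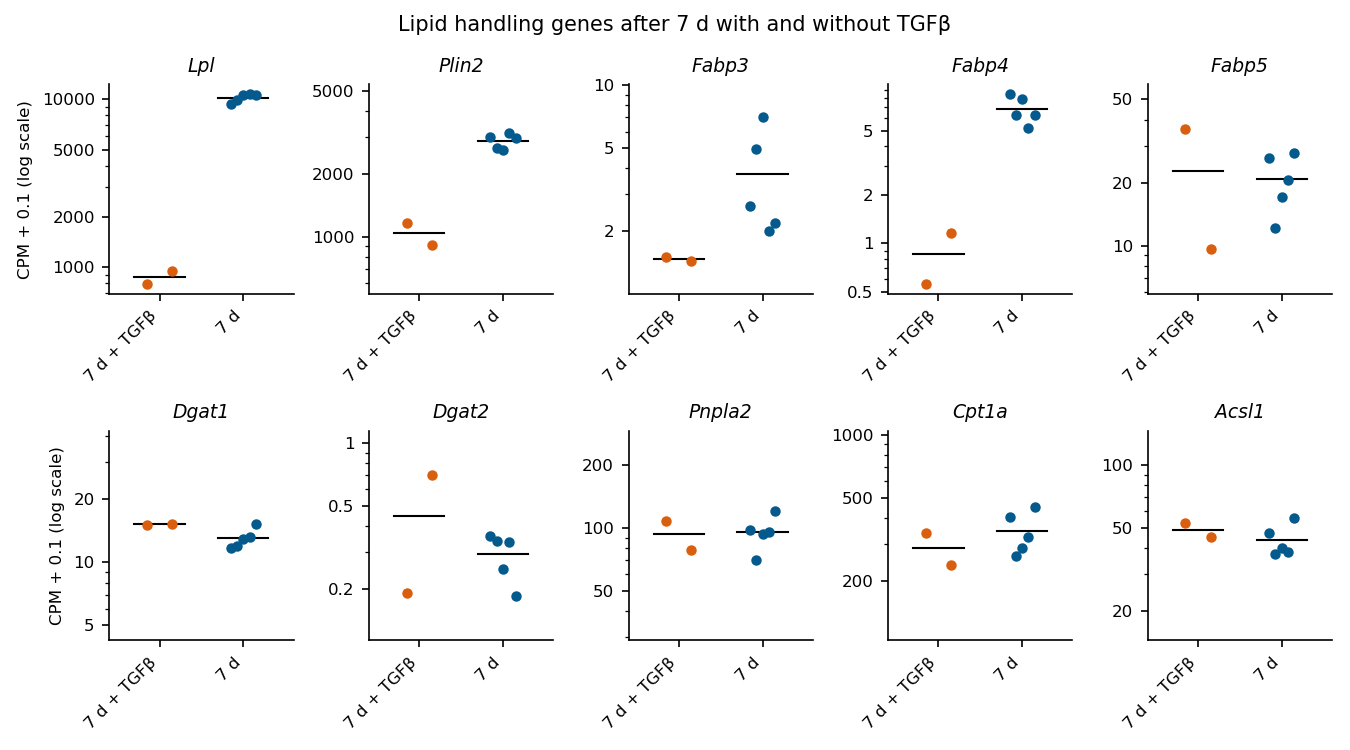
CPM plus 0.1 of the 10 genes (log scale) in the 2 libraries cultured 7 d with TGFβ and the 5 cultured 7 d without it, with a line at each mean. Lpl, Plin2 and Fabp4 lie below all 7 d libraries with TGFβ, while the 2 TGFβ libraries of Fabp5 lie on both sides of the 7 d values.

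The other 7 genes did not pass the test. Fabp3 had 1.42 and 1.35 CPM with TGFβ, against 1.9 to 6.91 CPM without it, so the groups did not overlap, and its log2 difference was -1.40 ± 0.57 (adjusted p = 0.107). In limma on log2(TPM + 1) it was called (-1.15, adjusted p = 0.0327), and without 7 d replicates 2 and 3 its edgeR difference was -0.65 (adjusted p = 0.435). Fabp5 had 36.0 and 9.52 CPM with TGFβ, which lie above and below the 12.1 to 27.5 CPM of the 7 d libraries, and its difference of 0.14 ± 0.45 changed sign with the library left out. Cpt1a had 337 and 239 CPM with TGFβ, against 264 to 453 CPM without it (log2 difference -0.27, adjusted p = 0.395). Dgat1, Dgat2, Pnpla2 and Acsl1 had log2 differences of 0.23, 0.85, -0.04 and 0.16 with overlapping libraries.

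Against ex vivo microglia, 6 of the 10 were higher in the TGFβ cultures and 2 lower (28.3% and 27.5% of all genes tested, 55.8% together). The 6 include Fabp3, Fabp4 and Fabp5, which were over the filter's limit in 0, 0 and 1 ex vivo libraries. Lpl was higher by 4.80 ± 0.34 on the log2 scale (adjusted p = 6.64e-09) and Plin2 by 5.77 ± 0.19 (adjusted p = 1.74e-12). Fabp5 was higher by 6.44 ± 0.52 (adjusted p = 4.80e-08), Fabp3 by 4.57, Fabp4 by 3.48 and Cpt1a by 2.23. Dgat1 was lower, at -0.84 ± 0.14 (adjusted p = 1.31e-04), and so was Acsl1, at -0.41 (adjusted p = 0.0272), a call lost without TGFβ replicate 2 (-0.29, adjusted p = 0.265). Dgat2, with 2 and 17 counts in the TGFβ libraries, was not called (-1.16, adjusted p = 0.119), and was called without TGFβ replicate 2 (-3.04, adjusted p = 0.0161).

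Of the other pathway genes, 1 of 11 tested for uptake and activation rose with TGFβ and 1 fell, as did 3 and 3 of 13 regulators. Of all genes tested, 9.57% were called higher with TGFβ and 6.52% lower. Cd36 averaged 12.8 ± 6.95 CPM with TGFβ (SD, n = 2) and 571 ± 183 CPM without it (SD, n = 5), a log2 difference of -5.47 ± 0.73 (adjusted p = 6.96e-05). Pparg averaged 0.0936 and 10.6 CPM (adjusted p = 3.11e-05), Mitf, a lysosomal gene regulator, 83.3 and 207 CPM, Ppard 73.2 and 25.9 CPM (adjusted p = 3.11e-05), and Mlxipl 164 and 7.73 CPM. Thrsp averaged 22.9 ± 25.3 CPM with TGFβ and 0.278 ± 0.297 CPM without it, Acaca 32.2 ± 5.27 and 14.7 ± 3.18 CPM, and Angptl4 61.5 ± 25.2 and 23.0 ± 13.2 CPM. Pparg with TGFβ and Thrsp without it averaged under the filter's limit of 0.457 CPM. Both thus passed it mainly through groups where they were higher. Of 22 β-oxidation genes 0 rose and 1 fell, namely Decr1, an enzyme for unsaturated fatty acids, with 13.8 CPM with TGFβ and 28.3 CPM without it. Of 9 coat genes 0 rose and 2 fell, among them Hilpda at 4.98 ± 1.42 CPM with TGFβ, against 12.9 ± 2.18 CPM without it. Beside these values, the 6 mural markers summed to 124 to 351 CPM with TGFβ and 1.33 to 20.0 CPM without it, nearly all from Cspg4, while Rgs5, Kcnj8 and Vtn were at 0 in both groups. Endothelial markers summed to 41.4 to 80.3 CPM with TGFβ and 13.7 to 38.6 CPM without it, mostly from Flt1 and Pecam1. Flt1 had 24.2 to 55.1 CPM with TGFβ and 9.75 to 35.4 CPM without it, and Pecam1 15.4 to 24.0 and 1.81 to 2.65 CPM. Cdh5 was also higher with TGFβ, Tek and Esam overlapped, and Cldn5, Ly6c1 and Slco1a4 were at 0 in both groups. Border macrophage markers summed to 142 to 358 CPM with TGFβ and 129 to 378 CPM without it, but single markers differed. Mrc1 had a median of 4.155 CPM with TGFβ and 57.3 CPM without it, and Pf4 2.19 and 8.27 CPM. Siglec1 made most of the sum with TGFβ, at 134 to 349 CPM, and overlapped its 74.8 to 308 CPM without it. The median of Cd163 was also lower with TGFβ, and that of F13a1 was higher. All 7 adipocyte markers were at 0 with TGFβ. The 10 microglial markers summed to 16950 to 18960 CPM with TGFβ and 7155 to 10950 CPM without it. The part of these markers in the differences was not tested.

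Sorted ex vivo microglia were next set against brain lysate, in a fit of their 9 libraries over 15335 genes, whose CPM differ slightly from those above because libraries were scaled anew. Of 9 genes tested, 5 were called higher in microglia and 3 lower, where 39.1% of all genes were called higher and 43.5% lower, 82.7% together. Plin2 had 26.5, 16.7, 25.0, 17.8 and 24.6 CPM in microglia, against 3.91, 3.70, 3.17 and 2.82 CPM in lysate, a log2 difference of 2.69 ± 0.21 (adjusted p = 1.34e-07). Pnpla2 was higher in microglia by 2.56 ± 0.24 (adjusted p = 8.61e-07), Cpt1a by 1.55 ± 0.19 (adjusted p = 1.01e-05), Dgat1 by 0.73 ± 0.13 and Acsl1 by 0.60 ± 0.10. No ex vivo library of these 5 genes overlapped the lysate.

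Dgat2, Fabp3 and Fabp5 were lower in microglia than in lysate. Dgat2 had 8 to 23 counts in microglia, against 746 to 2067 in lysate, a log2 difference of -6.03 ± 0.25 (adjusted p = 5.05e-10). Fabp3 had 0 to 2 counts in microglia, against 91 to 342 in lysate (-7.04 ± 0.47, adjusted p = 3.49e-08), and Fabp5 1 to 13 counts, against 104 to 240 (-4.74 ± 0.39, adjusted p = 2.31e-07). In this fit Fabp3 was over the filter's limit of 0.573 CPM in 0 microglial libraries and Fabp5 in 1, so that both passed through the 4 lysate libraries and had to differ. Lpl had 44.0, 46.6, 53.8, 21.6 and 14.9 CPM in microglia, against 18.5, 27, 27.6 and 11.6 CPM in lysate, and these ranges overlapped (log2 difference 0.77 ± 0.39, adjusted p = 0.0877). It was called without ex vivo replicate 5 (0.83, adjusted p = 0.0410). Fabp4, with at most 3 counts in any of the 9 libraries, was not tested. The neuronal markers summed to 2.85 to 29.5 CPM in microglia and 13820 to 15180 CPM in lysate, and the microglial ones to 43980 to 53910 and 315 to 412 CPM. Of the 5 ex vivo Fabp5 counts the highest, 13, came from replicate 3, which also held the most neuronal marker RNA, 29.5 CPM. Replicate 3 was likewise highest for the astrocyte (400 CPM), oligodendrocyte (223 CPM), border macrophage, choroid and ependymal, erythroid and microglial lists. It was not highest for the endothelial, mural, adipocyte, neutrophil and monocyte lists. A link between these values was not tested.

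Of 22 β-oxidation genes, 13 were higher in microglia and 3 lower, such as Acads, which oxidizes short-chain acyl-CoA, with 87.1 ± 19.2 CPM in microglia and 5.28 ± 0.633 CPM in lysate (SD, n = 5 and 4). Of 15 synthesis genes 3 were higher and 9 lower, among them Scd2, a desaturase, with 197 ± 30.8 CPM in microglia and 1398 ± 211 CPM in lysate. Of 13 uptake and activation genes 3 were higher and 8 lower, among them Fabp7, the brain-type binding protein of astrocytes and their precursors, with 0.0521 ± 0.0759 CPM in microglia and 15.8 ± 5.57 CPM in lysate, while Cd36 was not called (1.69 and 1.23 CPM). In microglia Fabp7 averaged under the filter's limit of 0.573 CPM, so it passed through the lysate and had to differ. The median log2 difference was 0.50 for β-oxidation, -2.41 for synthesis and -1.22 for uptake and activation, against -0.10 for all genes, of which 39.1% were higher in microglia and 43.5% lower.

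**Figure D4:**
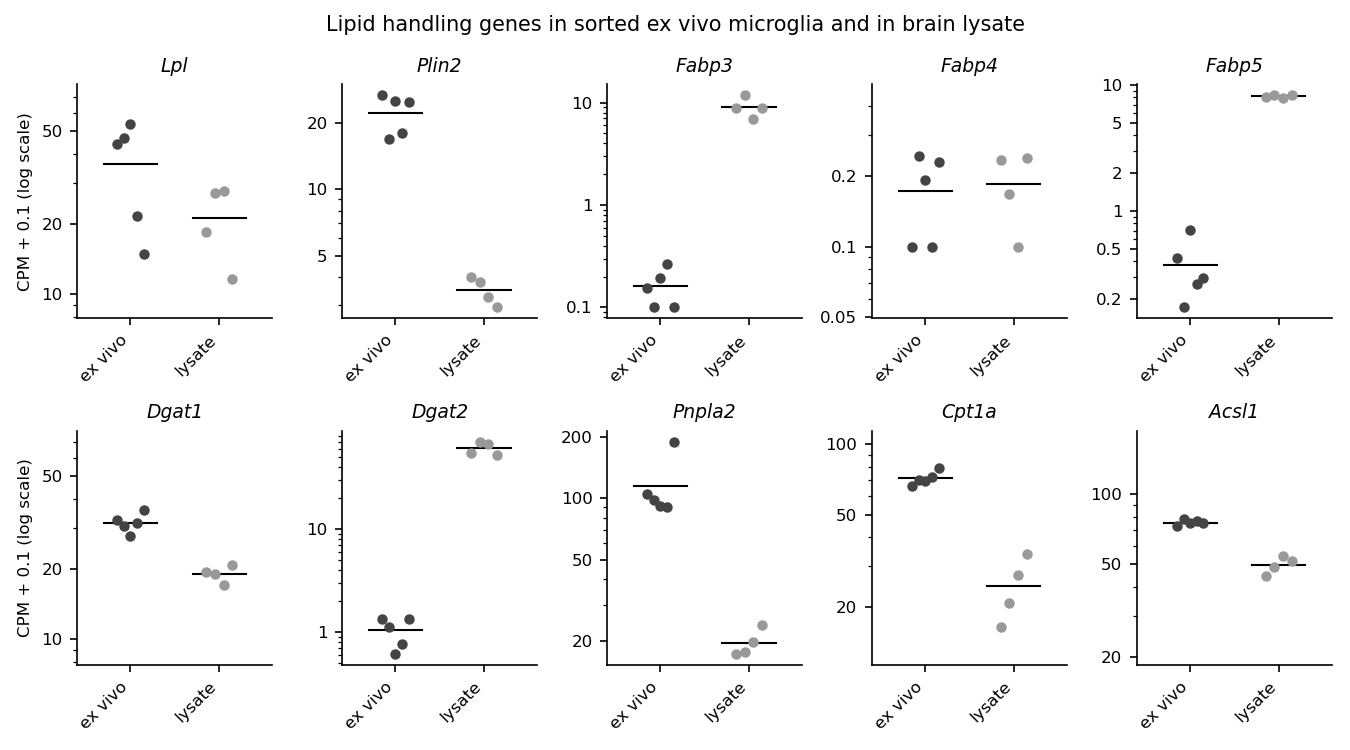
CPM plus 0.1 of the 10 genes (log scale) in the ex vivo group (5 libraries) and in brain lysate (4 libraries), with a line at each mean. Plin2, Pnpla2, Cpt1a, Dgat1 and Acsl1 are higher in microglia and Fabp3, Fabp5 and Dgat2 in lysate, while the Lpl and Fabp4 libraries overlap.

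Levels of different genes were compared per length, in the deposited TPM. Ex vivo the highest of the 10 was Pnpla2, at 57.7 to 121 TPM, followed by Acsl1 at 29.5 to 34.4 TPM, which overlapped Dgat1 at 26.9 to 33.5 TPM and Cpt1a at 24.3 to 30.0 TPM. Plin2 had 15.3 to 22.4 TPM and Lpl 5.98 to 22.5 TPM, and their ranges overlapped. At 7 d, Lpl (3830 to 4466 TPM) and Plin2 (2223 to 2798 TPM) stood above all the others, with Cpt1a next at 103 to 174 TPM. With TGFβ this order was turned round, with Plin2 at 901 and 759 TPM and Lpl at 285 and 367 TPM.

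The chromatin data hold peak intervals called by the authors on pooled replicates, with no score. Presence can be described, and width for the histone marks, and no replicate error can be given. ATAC and PU.1 intervals had a median width of 201 bp in every list, and all those at the 10 genes were this wide. Their edges therefore do not show how far open chromatin or binding reached. Over the whole lists, H3K27ac, a mark of active promoters and enhancers, had 31349 peaks covering 50.9 Mb at 7 d and 24520 peaks covering 61.3 Mb ex vivo. ATAC, which maps open chromatin, had 112977 peaks at 7 d and 90674 ex vivo. The ATAC list called 7 d here pools a replicate that is labelled with a later day than 7 d, so it mixes culture times. An H3K27ac peak lay within 1 kb of either gene end in 7 of the 10 genes at 7 d and 6 ex vivo, where 46% and 48% of 21887 protein-coding genes had one. For ATAC these were 10 and 9 of the 10 genes (59.2% and 58% of all genes). In ex vivo microglia, 9 of the 10 had a peak of H3K4me2, a mark of promoters and enhancers (63.7%), and 6 a peak of PU.1, a macrophage transcription factor (47.4%).

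Lpl (mm10 chr8:68880555-68906932) had 4 H3K27ac peaks in its gene body at 7 d, covering 8120 bp, and 0 ex vivo. One of these spanned the end of lower coordinate over 6272 bp, from position -2057 to 4214 relative to it. A gene body with H3K27ac at 7 d and none ex vivo was seen in 5.97% of all genes. The same gene was open in both states, with 3 ATAC peaks in each, and ex vivo it already held 3 H3K4me2 peaks covering 5756 bp and 3 PU.1 peaks. Fabp3 (chr4:130308738-130315463) showed the same pattern at its start, where an H3K27ac peak of 1327 bp stood at 7 d and none ex vivo, over an H3K4me2 peak of 1921 bp ex vivo. The ATAC peaks at its start, 222 to 22 bp upstream at 7 d and 204 to 4 bp upstream ex vivo, overlapped in the 183 bases in capitals above, and no PU.1 peak lay in the gene or within 1 kb of its ends.

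At Plin2 (chr4:86626910-86670217), 1 H3K27ac peak of 9593 bp spanned the start at 7 d, from position -4161 to 5431 relative to it, and ex vivo there were 2 there, of 1990 and 930 bp. The E-box printed above lies inside an ATAC peak of both states, which ran from 78 bp before to 122 bp after the start at 7 d and from 84 bp before to 116 bp after it ex vivo. At Cpt1a (chr19:3322326-3385735) the H3K27ac peak over the start was about as wide in both, 4952 bp at 7 d and 5164 bp ex vivo. The hexamer of Cpt1a lay inside the ex vivo ATAC peak (117 bp before to 83 bp after the start). It lay outside that of 7 d (66 bp before to 134 bp after). The 2 intervals overlap and are both 201 bp wide, so a difference in openness at the hexamer cannot be told from them. The start used for Cpt1a lies inside its gene body. ATAC peaks also lay at its end of lower coordinate, from position 16 to 216 at 7 d and 37 to 237 ex vivo. Dgat2 (chr7:99153663-99182713), which fell at 7 d, had 0 H3K27ac peaks in its body at 7 d and 2 ex vivo, covering 1544 bp, a pattern seen in 4.72% of all genes, and 4 ATAC peaks in each state.

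**Figure D5:**
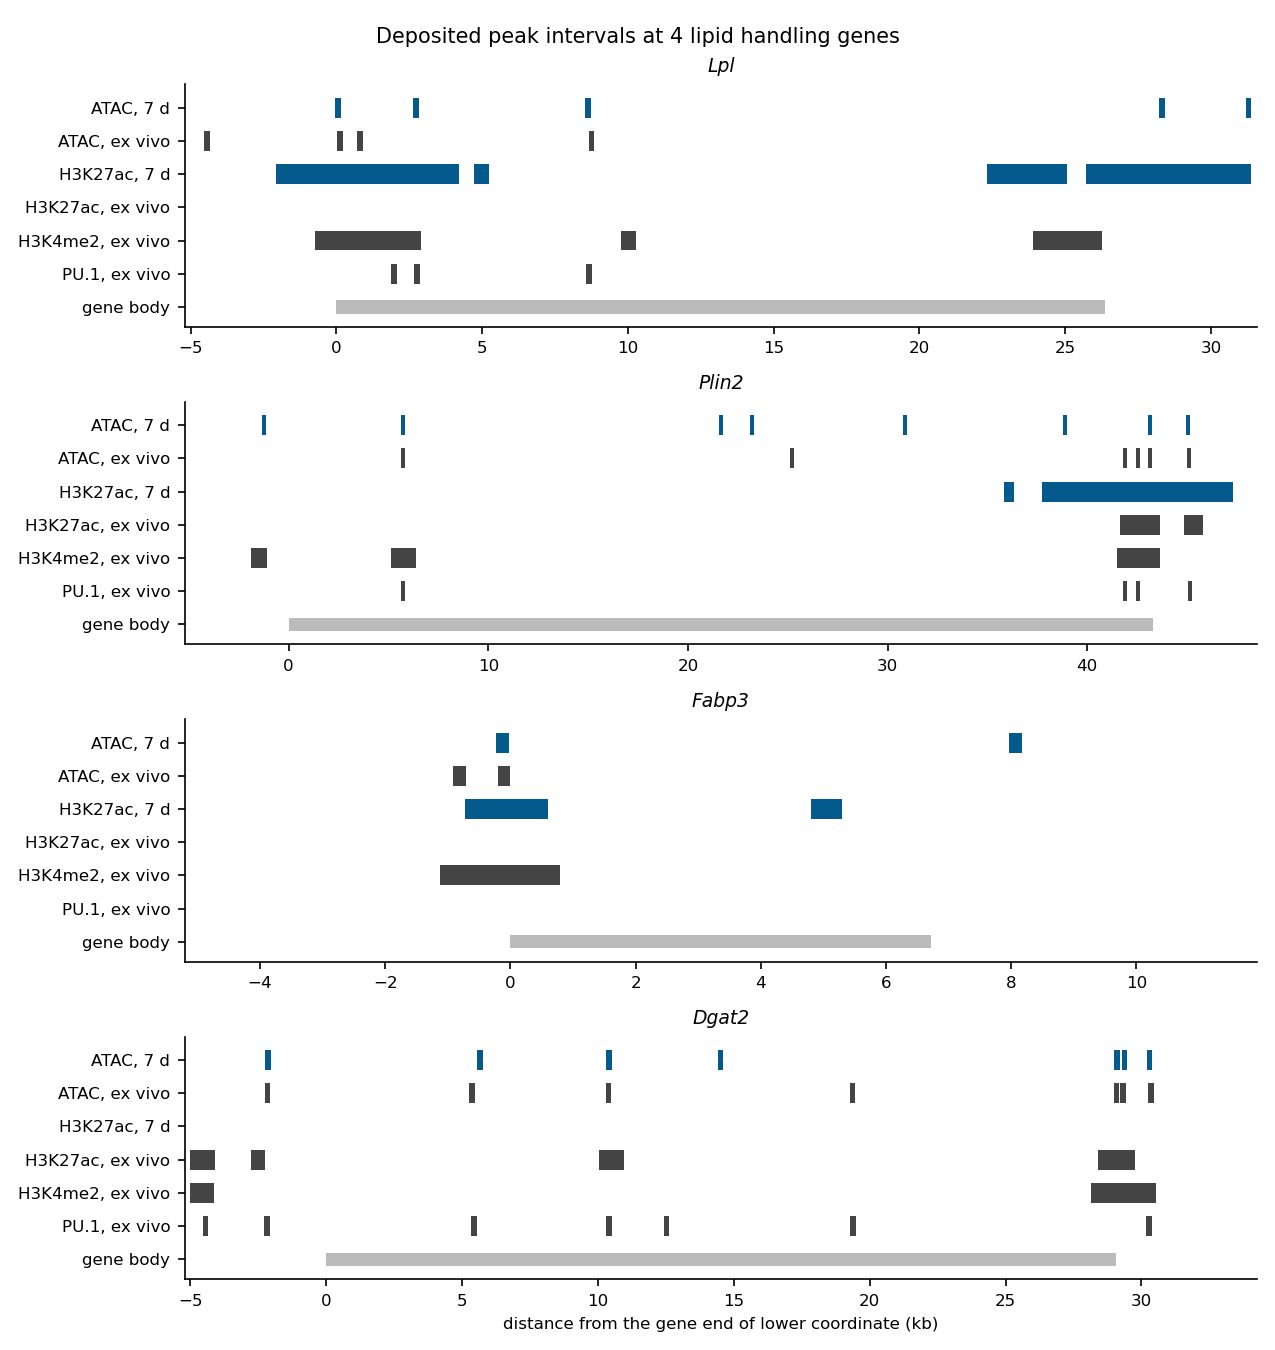
Deposited peak intervals (bars) at Lpl, Plin2, Fabp3 and Dgat2, by distance in kb from the gene end of lower coordinate, with the gene body in grey and 5 kb drawn on either side; 7 d is above ex vivo for ATAC and H3K27ac. The start of Plin2 lies at its right end and that of Fabp3 at its left. H3K27ac intervals appear at Lpl and Fabp3 at 7 d only and in the body of Dgat2 ex vivo only.

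Fabp4 (chr3:10204342-10208616) and Fabp5 (chr3:10012585-10016610) had no H3K27ac peak in their bodies in either state, although their RNA was high at 7 d. Fabp4 had 1 ATAC peak at its end of higher coordinate at 7 d and none ex vivo. An H3K27ac peak of 501 bp lay outside the gene at 7 d, beyond the same end. It began 6831 bp from the end of lower coordinate, where the gene itself is 4275 bp long. Further out, an ATAC peak lay in both states, from position 9050 to 9250 at 7 d and 9049 to 9249 ex vivo. An ex vivo PU.1 peak overlapped it, from position 9015 to 9215. Fabp5 had 2 ATAC peaks in its body at 7 d and 1 ex vivo, with H3K4me2 and PU.1 peaks ex vivo. Dgat1, Pnpla2 and Acsl1 had H3K27ac peaks in both states, which in the body of Pnpla2 covered 2736 bp at 7 d and 4514 bp ex vivo, in that of Acsl1 1925 and 3322 bp, and in that of Dgat1 1078 and 963 bp.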

How the data were processed

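Members and lists were chosen with earlier results of these data known. The authors deposited read counts per gene symbol as whole numbers, TPM in a table they call trimmed (568934 to 644847 per library), and peak intervals, which are positions with no score. Per the file headers, HOMER called peaks on 1 pooled tag directory per condition, against pooled input except for ATAC. Per the submitters' processing notes, tools included HOMER, STAR, limma, bedtools, Bowtie2 and R 3.3.1, with mm10 as a build; roles, strand and multimapping rules are not given there. The count model was edgeR 4.0.16 under R 4.3.3 (TMM, filterByExpr with a minimum count of 10, robust quasi-likelihood fit, Benjamini-Hochberg, threshold 0.05): the 17 microglial libraries in 1 model, lysate with ex vivo apart. Each SE was taken as the fold change on the log2 scale over √F. Alternatives used DESeq2 1.42.0, limma 3.58.1 on TPM with pseudocounts of 1 and 0.1, and left-out libraries; TPM for lysate was added after seeing the data. Each list names up to 4 called genes by adjusted p and 2 not called by level, of which some are printed. Distances to starts were used only for the 5 genes in the promoter table, and gene ends, without strand, elsewhere, in place of the start planned. The procedure was tested on simulated data. Peaks and sequences were read with Python 3.11.15, pandas 2.3.3 and numpy 2.4.6, and figures drawn with matplotlib 3.10.9. Input libraries were not analysed here.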

Additional observations from a re-analysis of the deposited data

Results flagged for a closer look

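Pnpla2 stood at 161 CPM in ex vivo replicate 5, far from the 77.7 to 90.5 CPM of the other 4 ex vivo libraries, a gap of 0.847 of the group's whole range. Chance flags about 1 in 20 groups, and 30 groups of the 10 genes were examined. Without this library the log2 fold change of Pnpla2 over ex vivo was 1.47 at 6 h (adjusted p = 7.73e-06 with edgeR), 0.82 at 24 h (adjusted p = 9.53e-04) and 0.19 at 7 d (adjusted p = 0.292), and that of ex vivo over lysate was 2.16.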

How the results depend on the processing

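Over 1214 refits of the 10 genes' fold changes, 1163 kept direction and side of the threshold, 42 lost the call, 9 gained it and 0 reversed. For 24 h over 6 h, RLE size factors gave 1 gene higher, and DESeq2 and the fit of these 2 groups alone each gave 1 lower, Pnpla2, and that fit also called Lpl higher. For TGFβ over ex vivo, 1 gene was lower with no filter on low counts, and for 6 h over ex vivo 1 was lower in the fit of the 2 groups alone. Without 1 library the counts higher were 0 to 2 for 24 h over 6 h and those lower 1 to 2 for 6 h over ex vivo, while all genes called ranged from 3615 to 4933 for 24 h over 6 h and from 1260 to 2326 for TGFβ over 7 d. Of the pathway genes, Acadm for TGFβ over ex vivo reversed in limma on TPM (-0.30, -0.31 and -0.30). Deviations of same-numbered samples correlated at r = -0.03 to 0.20 for 7 d and ex vivo, at 0.24 and 0.23 for 24 h and 6 h and at 0.11 and 0.38 for TGFβ and 7 d. The last comparisons hold only 2 pairs each, and no comparison with 3 or more pairs had all of them over 0.1, so the numbers were not taken as pairs. With the replicate block, 6 h over ex vivo and TGFβ over ex vivo each had 1 gene lower, and Lpl was called higher ex vivo than in lysate (0.98, adjusted p = 7.06e-04 with edgeR). Deposited TPM shifted the median log2 fold change of all genes by -0.33 at 6 h, -0.21 at 7 d, 0.33 for 24 h over 6 h, -0.19 for 7 d over 24 h, -0.12 for TGFβ over 7 d and -0.33 for TGFβ over ex vivo, RLE and DESeq2 that of ex vivo over lysate by -0.28. Genes called higher and lower with TPM were 3089 and 5732 at 6 h (edgeR on counts gave 4312 and 5099), 4330 and 1475 for 24 h over 6 h (3045 and 2734), 2657 and 3851 for 7 d over 24 h (3769 and 2985), 942 and 1547 for TGFβ over 7 d (1325 and 902), 2533 and 5197 for TGFβ over ex vivo (3920 and 3801) and, with no filter, 3886 and 6112 at 7 d over ex vivo (4821 and 4943). Windows of 2.5 kb gave 8 genes with a PU.1 peak in place of 6. The cause of these differences was not tested. Fabp4 had 0 to 4 counts per library until 24 h, and a difference was not detectable there at this depth.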

Other observations

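Genes whose log2 fold changes over ex vivo in the 4 culture groups were nearest to those of each member were sought among 9524 genes averaging 5 CPM or more, by the root mean square difference. Nearest to Lpl was Akr1b8 (0.75), an aldo-keto reductase, with 7.58 at 6 h, 9.46 at 24 h, 7.92 at 7 d and 3.83 at 7 d with TGFβ, followed by Mcoln2 (0.84), a lysosomal cation channel. Nearest to Plin2 was Id3 (0.44), a helix-loop-helix inhibitor, with 5.64, 6.07, 6.52 and 5.47, and then Sh3pxd2b (0.69). Fabp4 had Serpinb6a (0.79) as its nearest gene and Fabp5 had Colec12 (0.57), a scavenger receptor, which rose at 7 d by 6.00 and stayed high with TGFβ at 7.45. Cpt1a had Tfrc (0.19), the transferrin receptor, with 1.38, 2.39, 2.30 and 2.20. Genes with small changes had closer neighbours, Pnpla2 with Strn4 (0.03), Dgat1 with Marf1 (0.06) and Acsl1 with Scap (0.09). The 4 culture groups share their ex vivo libraries, so these likenesses are a description.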
